A study of Mus musculus with 12 samples.

Results

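The genes described here are 40 genes of the cell cycle and of DNA replication, chosen by name as rows of the deposited count table that carry their mouse gene symbols. All 40 were found among 48795 genes, and 33 of them were among the 13812 genes with enough counts to be tested. The other 7 (Ccne1, Ccnb1, Cdc6, Foxm1, Bub1, Plk1 and Cenpf) had between 8 and 17 counts in the mouse where each was highest, and they are given by their levels only. The rule is by name alone, but the members were chosen with earlier results of these data known. The members were sorted by role into G1 and G1/S cyclins, S, G2 and M cyclins with Cdk1, origin licensing and helicase genes, DNA synthesis and nucleotide supply genes, transcription and chromatin regulators, spindle and kinetochore genes, and the proliferation markers Mki67 and Top2a.

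The study sequenced liver RNA of 12 female mice, 3 in each of 4 groups, to compare the response to fasting with and without neurotensin (NTS), a gut peptide that promotes fat absorption. All mice were 4 months old, ate normal chow and came from littermates matched by sex and age. The groups were Nts+/+ fed ad libitum (mice 254, 257 and 323), Nts+/+ fasted for 22 h (mice 265, 282 and 322), Nts-/- fed ad libitum (mice 277, 303 and 319) and Nts-/- fasted for 22 h (mice 284, 290 and 295). The Nts-/- animals lack NTS in the whole body, not in the liver alone, and all 12 libraries carry the same batch label.

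Adult hepatocytes rest outside the cell cycle and re-enter it after injury or loss of liver tissue, so that in an uninjured liver cells in S phase or mitosis are rare. Entry from G1 is driven by D-type cyclins, which with Cdk4 and Cdk6 release E2F transcription factors from the retinoblastoma family of proteins. E2F then switches on genes for origin licensing, the MCM helicase and nucleotide synthesis. A later wave of genes for spindle assembly and cell division is switched on through the MuvB complex with B-MYB and FOXM1, often at promoters that hold a CHR element and CCAAT boxes. In bulk tissue a lower level can come from fewer cells that express a gene or from less RNA per cell, and these cannot be told apart here.

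Promoter windows are shown for members on which the results turn, because E2F and CHR elements define the textbook waves of cell cycle transcription. The RefSeq windows of build GRCm38.p6 run from 250 bases before to 50 bases after a start site and were found for 31 of the 40 members, in 34 windows. The first 3 below are the members with the smallest adjusted p among those with a window that held any searched letters, and Mcm2 was added after its values were seen as a helicase subunit that did not pass the test. Capitals mark any match, on either strand, to an E2F site (TTTCCCGC, TTTGGCGC, TTTCGCGC or TTTGCCGC), to the CHR element (TTTGAA) or to a CCAAT box (CCAAT), and matches that overlap are joined.
Mcm5, chr8:75109259-75109558, plus strand: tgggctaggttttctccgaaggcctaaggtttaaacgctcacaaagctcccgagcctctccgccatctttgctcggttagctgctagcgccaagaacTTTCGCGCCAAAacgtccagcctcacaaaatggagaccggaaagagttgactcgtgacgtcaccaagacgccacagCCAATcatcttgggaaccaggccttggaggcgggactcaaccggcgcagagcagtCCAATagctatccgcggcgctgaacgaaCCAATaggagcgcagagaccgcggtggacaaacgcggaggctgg
Top2a, chr11:99024140-99024439, minus strand: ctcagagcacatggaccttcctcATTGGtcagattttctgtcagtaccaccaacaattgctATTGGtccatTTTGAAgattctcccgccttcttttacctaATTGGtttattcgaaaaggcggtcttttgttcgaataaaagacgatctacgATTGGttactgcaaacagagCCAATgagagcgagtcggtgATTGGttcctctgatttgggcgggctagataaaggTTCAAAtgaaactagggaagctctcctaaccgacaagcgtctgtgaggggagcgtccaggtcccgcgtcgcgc
Mcm6, chr1:128359656-128359955, minus strand: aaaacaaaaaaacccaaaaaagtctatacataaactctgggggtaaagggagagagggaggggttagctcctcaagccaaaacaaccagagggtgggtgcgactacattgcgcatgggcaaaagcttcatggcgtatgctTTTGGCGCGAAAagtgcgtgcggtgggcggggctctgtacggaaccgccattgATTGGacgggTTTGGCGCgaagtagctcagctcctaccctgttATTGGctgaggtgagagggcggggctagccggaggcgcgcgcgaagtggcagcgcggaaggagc
Mcm2, chr6:88898731-88899030, minus strand: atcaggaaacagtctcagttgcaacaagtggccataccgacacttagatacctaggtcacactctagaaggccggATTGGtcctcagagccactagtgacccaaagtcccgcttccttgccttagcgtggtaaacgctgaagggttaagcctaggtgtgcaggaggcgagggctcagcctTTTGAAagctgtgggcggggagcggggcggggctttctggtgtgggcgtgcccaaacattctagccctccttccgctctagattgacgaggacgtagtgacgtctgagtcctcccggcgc

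The Mcm5 window held 2 overlapping E2F matches, at -153 and -149 relative to the start site, and 3 CCAAT boxes. The Mcm6 window held 3 E2F matches, at -110, -106 and -47, and 2 CCAAT boxes. The Top2a window held no E2F match, 2 CHR elements at -179 and -23, and 6 CCAAT boxes. The Mcm2 window held no E2F match, 1 CHR element and 1 CCAAT box. Mcm7, the other helicase subunit that did not pass, held 2 E2F matches and 3 CCAAT boxes in its window at chr5:138171834-138172133. Its window at chr5:138171217-138171516 held no E2F match and 1 CCAAT box. Over the members, an E2F match was present in 8 of 34 windows (23.5%), against 2.26% of all 32851 windows. CHR letters were present in 35.3% of the members' windows against 17.9% of all windows, and CCAAT in 76.5% against 37.4%. Among members that were lower in a fasting comparison 5 of 16 windows held an E2F match and 6 held CHR letters, and among tested members that did not pass 2 and 4 of 10 windows did. The windows of Tk1 and E2f1 held none of these letters, and the E2f1 window (chr2:154569377-154569676) lies inside the span that the deposited table gives for the gene, so it starts downstream of the gene's outer end. A match is only a match of letters and does not show that a factor binds.

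The libraries held between 21999647 and 45273069 counts, at which 3 counts correspond to between 0.0709 and 0.142 CPM (the count as a share of the library's total, on the usual scale of this unit, after TMM scaling in edgeR). Such a floor covers counting error only. Fasting separated the libraries most in principal components of only the most variable of the 13812 tested genes. The first component carried 45.8% of the variance of those genes and put the 6 fed on one side of the 6 fasted. Summed markers of hepatocytes were between 113668 and 154430 CPM in every library. Most of that sum was Alb, with between 87181 and 114601 CPM in fed and between 94424 and 111836 CPM in fasted livers, so it does not describe the other hepatocyte markers. Counts on Nts itself were 0 in all 6 libraries labelled Nts+/+ and between 4 and 46 in the libraries labelled Nts-/-, which goes against the labels, so that every genotype direction below is that of the label.

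The first question was what 22 h without food did to the cell cycle genes. Averaged over both genotypes, 20 of the 33 tested members were lower in fasted livers at an adjusted p under 0.05 and 1, Ccnd3, was higher. At an unadjusted p under 0.05 there were 23 members, against 42.6% of all tested genes. The 21 members were 63.6% of the tested members, against 32.8% of all tested genes in either direction (16% higher and 16.8% lower). The members' median log2 fold change was -0.74, against -0.01 for all tested genes. In 13 of 33 members (39.4%) all 6 fasted livers were below all 6 fed livers, which held for 7.83% of all tested genes, and in 0 members were all fasted livers above all fed livers, which held for 8.05%. The heat map of members by mouse shows this as a block of lower values in the fasted columns of both genotypes, with the D-type cyclin Ccnd3 higher within each genotype.

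**Figure D1:**
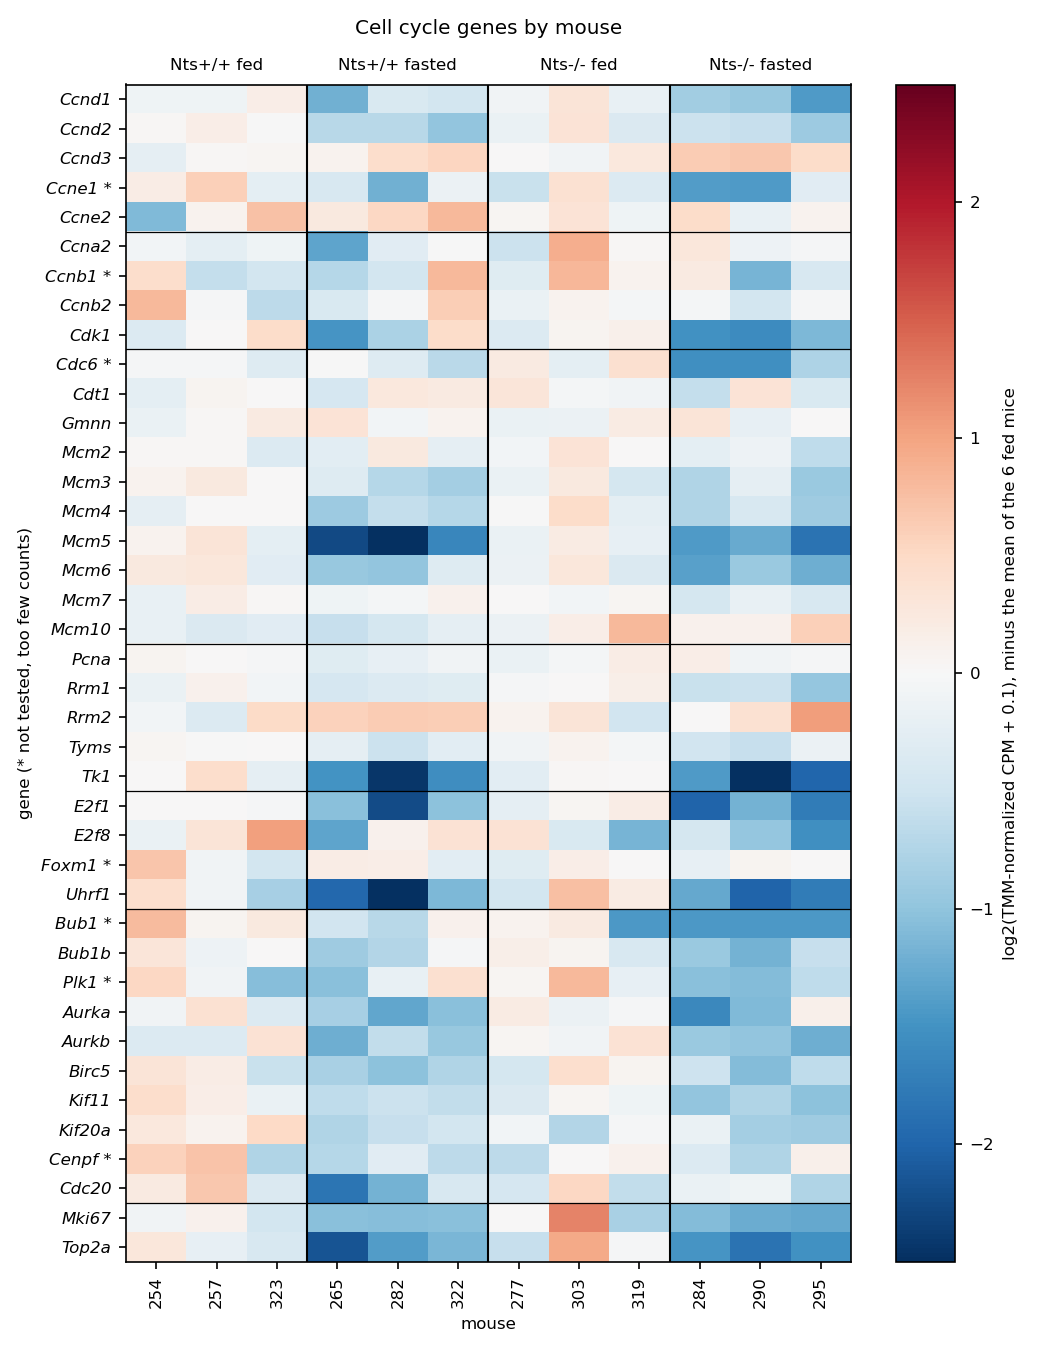
Level of each of the 40 members (rows, in order of role) in each of the 12 mice (columns, by group), as log2 of TMM-normalized CPM plus 0.1, after subtracting the mean of the 6 fed mice. Blue is below and red above the fed mean, and an asterisk marks the 7 members that were not tested. Mcm5, Tk1, E2f1, Uhrf1 and Top2a are blue in all 6 fasted mice.

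Within Nts+/+ livers 9 members passed the test, all lower when fasted (Ccnd2, Mcm3, Mcm4, Mcm5, Mcm6, Tk1, E2f1, Uhrf1 and Top2a), which is 27.3% of those tested against 18.1% of all tested genes (8.91% higher and 9.19% lower). Within Nts-/- livers 13 members were lower (Ccnd1, Ccnd2, Cdk1, Mcm4, Mcm5, Mcm6, Rrm1, Tk1, E2f1, Uhrf1, Aurkb, Mki67 and Top2a) and Ccnd3 was higher, or 42.4% against 16.8% of all tested genes (7.7% higher and 9.14% lower). The median log2 fold change of the members was -0.64 in Nts+/+ and -0.68 in Nts-/- livers. These counts are sensitive to single mice. The Nts+/+ count fell to 4 without mouse 254, without mouse 257 or without mouse 282. In those fits the Nts+/+ share of all tested genes fell too, from 18.1% to 9.46%, 11.4% and 8.7%, in that order. The Nts-/- count fell to 7 without mouse 303, to 8 without mouse 290 and to 9 without mouse 277, 284 or 295. It was also 9 when only the 6 Nts-/- mice were fitted. Without 1 of these mice the Nts-/- share of all tested genes fell too, from 16.8% to between 9.68% and 12.3%. With only the 6 Nts-/- mice it was 14.9%. With each mouse of the genotype left out in turn, Ccnd2, E2f1, Mcm5 and Tk1 passed every time in Nts+/+ livers, and Ccnd1, E2f1, Mcm5, Mcm6, Rrm1, Tk1 and Top2a passed every time in Nts-/- livers.

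Of the members, 8 passed in both genotypes, 1 (Mcm3) passed only in Nts+/+ and 6 only in Nts-/- livers, and 30 of 33 had the same sign in both. The difference of the fasting effects was tested directly and gave 0 members at an adjusted p under 0.05 in edgeR, 0 members at an unadjusted p under 0.05 (4.8% of all tested genes) and 0 members in the Wald test of DESeq2. Groups of 3 mice did not overlap between fed and fasted livers for 20 lower and 2 higher members in Nts+/+ livers and for 19 lower and 1 higher members in Nts-/- livers. Over all tested genes, groups did not overlap for 36% in Nts+/+ livers (17.9% lower and 18.1% higher) and for 35.2% in Nts-/- livers (18.1% lower and 17.1% higher). At an unadjusted p under 0.05 there were 20 members in each genotype, against 32.5% of all tested genes in Nts+/+ and 31.7% in Nts-/- livers.

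**Figure D2:**
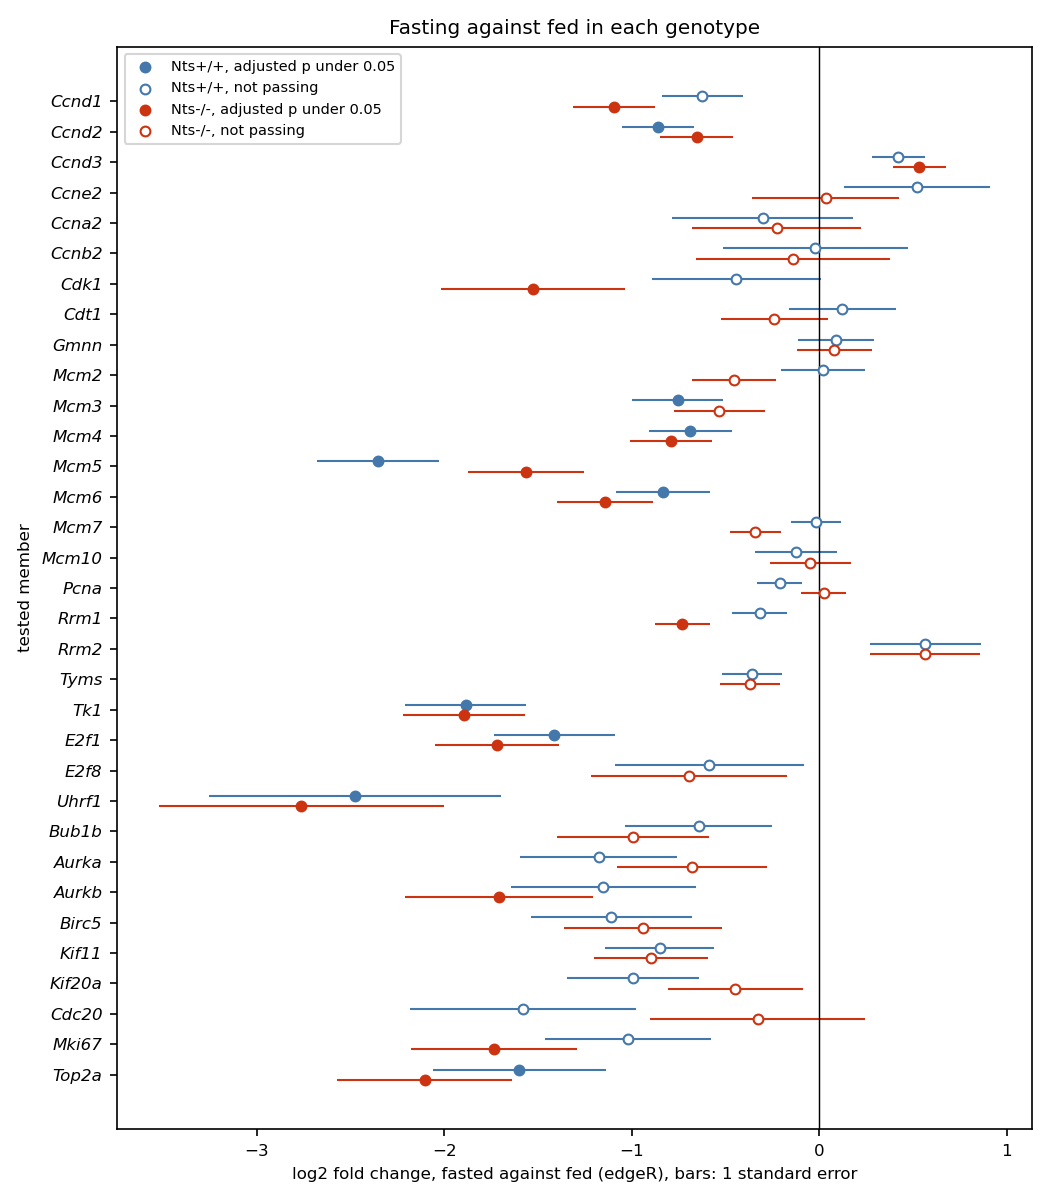
Log2 fold change of fasted against fed livers (horizontal axis) for the 33 tested members (vertical axis, in order of role), in Nts+/+ (blue) and Nts-/- (red) mice, with bars of 1 standard error and filled points at an adjusted p under 0.05 in edgeR. Most points lie left of 0, while Ccnd3, Rrm2, Ccne2 and Gmnn lie right of 0 in both genotypes.

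The D-type cyclins, which bind Cdk4 and Cdk6 to start the passage through G1, did not move together. Ccnd1, the D-type cyclin that rises when hepatocytes are driven into the cycle, had 86.0, 86.2 and 104 CPM in fed and 40.1, 70.9 and 67.6 CPM in fasted Nts+/+ livers, and 86.7, 116 and 81.5 CPM in fed and 50.9, 47.8 and 34.6 CPM in fasted Nts-/- livers. All 6 fasted livers were below all 6 fed livers. The mean log2 fold change over both genotypes was -0.86 ± 0.15 (SE), a 1.81-fold lower level (adjusted p = 0.000979 in edgeR). Within Nts+/+ livers alone it was -0.62 ± 0.22 with an adjusted p of 0.0625, and within Nts-/- livers it was -1.10 ± 0.22 with an adjusted p of 0.00491.

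Ccnd2 had 8.46, 9.34 and 8.20 CPM in fed and 5.12, 5.12 and 4.12 CPM in fasted Nts+/+ livers, and 7.41, 10.5 and 6.45 CPM in fed and 5.68, 5.50 and 4.39 CPM in fasted Nts-/- livers. Here too the 6 fasted livers were all lower, and the change averaged -0.76 ± 0.14 on the log2 scale (adjusted p = 0.000959 in edgeR). Ccnd3 went the other way, with 22.9, 27.2 and 27.7 CPM in fed and 28.6, 36.3 and 39.2 CPM in fasted Nts+/+ livers, and with 26.9, 25.1 and 32.0 CPM in fed and 41.6, 43.0 and 37.1 CPM in fasted Nts-/- livers. The fasted mice were higher within each genotype, and the lowest fasted mouse (265) lay below the highest fed mouse (319) only across genotypes. Its mean log2 fold change was 0.48 ± 0.10, a 1.39-fold higher level (adjusted p = 0.00251 in edgeR). Bysl, a ribosome biogenesis gene that overlaps the end of Ccnd3, had about a 2-fold lower summed count (5691 against 11108) and a mean log2 fold change of 0.46.

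Ratios between members were set side by side after their values were seen, as a description with no test result given. The log2 ratio of Ccnd1 to Ccnd3 counts was between 1.35 and 2.21 in the 6 fed livers and between -0.10 and 0.97 in the 6 fasted livers. The ratio of Ccnd2 to Ccnd3 was between -2.31 and -1.25 when fed and between -3.24 and -2.48 when fasted. Neither pair of ranges overlapped, as follows from the opposite directions of the genes given above. The ratio of Ccnd1 to Ccnd2 differed by -0.14 between fasted and fed livers.

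Cyclin E genes, which act with Cdk2 at the start of S phase, gave no call. Ccne1 was at or below 13 counts in every mouse. Ccne2 was between 0.480 and 1.95 CPM in fed Nts+/+ livers and between 1.38 and 2.09 CPM in fasted ones, and the change averaged 0.28 ± 0.28 on the log2 scale (adjusted p = 0.471 in edgeR). It shares 5622 bases with Ints8, which has a higher count, so its reads are uncertain.

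**Figure D3:**
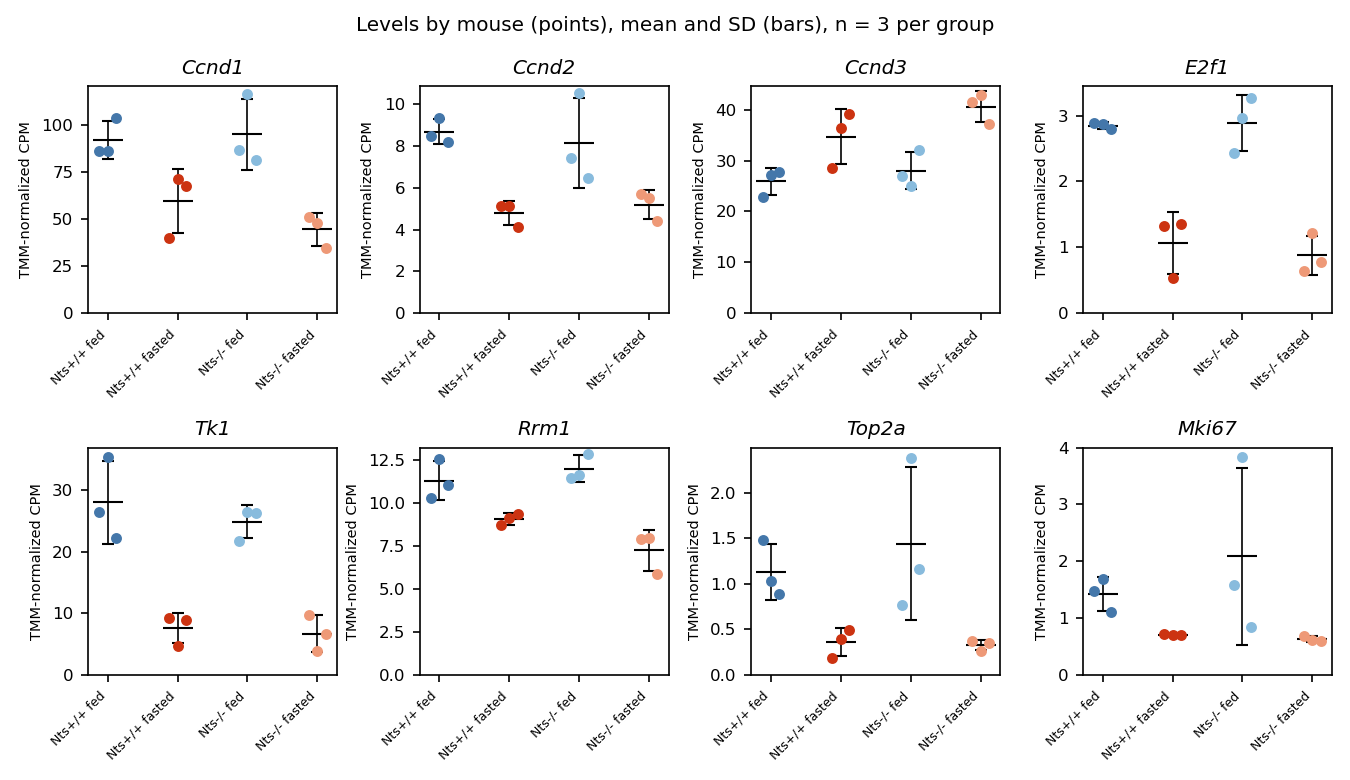
TMM-normalized CPM (vertical axes, from 0) of 8 members in each mouse (points), with the group mean and SD (n = 3) as bars, for the 4 groups on the horizontal axes. Ccnd1, Ccnd2, E2f1, Tk1, Rrm1, Top2a and Mki67 lie lower and Ccnd3 higher in fasted than in fed livers of the same genotype, and mouse 303 stands highest for Mki67 at 3.84 CPM and for Top2a at 2.39 CPM.

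Of the later cyclins and their kinase, only Cdk1, which drives entry into mitosis, passed a test. Cdk1 had 0.849, 1.10 and 1.55 CPM in fed and 0.332, 0.595 and 1.55 CPM in fasted Nts+/+ livers, where the groups overlapped because of mouse 322. In Nts-/- livers it had 0.847, 1.16 and 1.21 CPM when fed and 0.321, 0.303 and 0.449 CPM when fasted, with no overlap. The mean log2 fold change was -0.98 ± 0.33 (adjusted p = 0.0353 in edgeR), but this passed in only 4 of the 12 fits that leave out 1 mouse, with adjusted p up to 0.0829. Ccna2 and Ccnb2 had mean log2 fold changes of -0.26 and -0.08 that did not pass, and Ccna2 overlaps the more abundant Exosc9. Ccnb1 had at most 17 counts in a mouse.

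Within the licensing and helicase genes, the 6 subunits of the MCM helicase (Mcm2 to Mcm7), which is loaded at origins in equal parts and unwinds the DNA ahead of the fork, were measured one by one, and 4 of them (Mcm3, Mcm4, Mcm5 and Mcm6) passed the test, all lower when fasted. Mcm5 had 2.81, 3.31 and 2.22 CPM in fed and 0.474, 0.331 and 0.786 CPM in fasted Nts+/+ livers. In Nts-/- livers it had 2.33, 3.04 and 2.26 CPM when fed and 0.916, 1.04 and 0.661 CPM when fasted. The fed and fasted values did not overlap, and the mean log2 fold change was -1.96 ± 0.22, a 3.88-fold lower level (adjusted p = 2.74e-05 in edgeR). By genotype it was -2.35 ± 0.32 (adjusted p = 0.000436) and -1.56 ± 0.31 (adjusted p = 0.00428), and the difference between these, 0.79 with a 95% interval from -0.17 to 1.75, did not pass (adjusted p = 0.897).

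Mcm6 had 5.91, 6.07 and 4.08 CPM in fed and 2.51, 2.48 and 3.96 CPM in fasted Nts+/+ livers, and 4.47, 6.05 and 3.83 CPM in fed and 1.88, 2.55 and 2.08 CPM in fasted Nts-/- livers. Each genotype was separated, though mouse 322 (3.96 CPM) lay above the fed mouse 319. Its mean log2 fold change was -0.99 ± 0.18 (adjusted p = 0.000959 in edgeR). Mcm4 and Mcm3 changed by -0.74 ± 0.15 (adjusted p = 0.00258) and -0.64 ± 0.17 (adjusted p = 0.0107), and only Mcm4 was lower in every fasted than in every fed liver. Mcm2 was between 2.62 and 4.24 CPM in fed and between 2.10 and 3.97 CPM in fasted livers, with a log2 fold change of -0.22 ± 0.16 that did not pass (adjusted p = 0.319). Mcm7 was between 10.5 and 13.7 CPM in fed and between 8.89 and 13.0 CPM in fasted livers, with -0.18 ± 0.10 (adjusted p = 0.172). Mcm7 shares 64 bases with Cops6, which has a higher count.

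**Figure D4:**
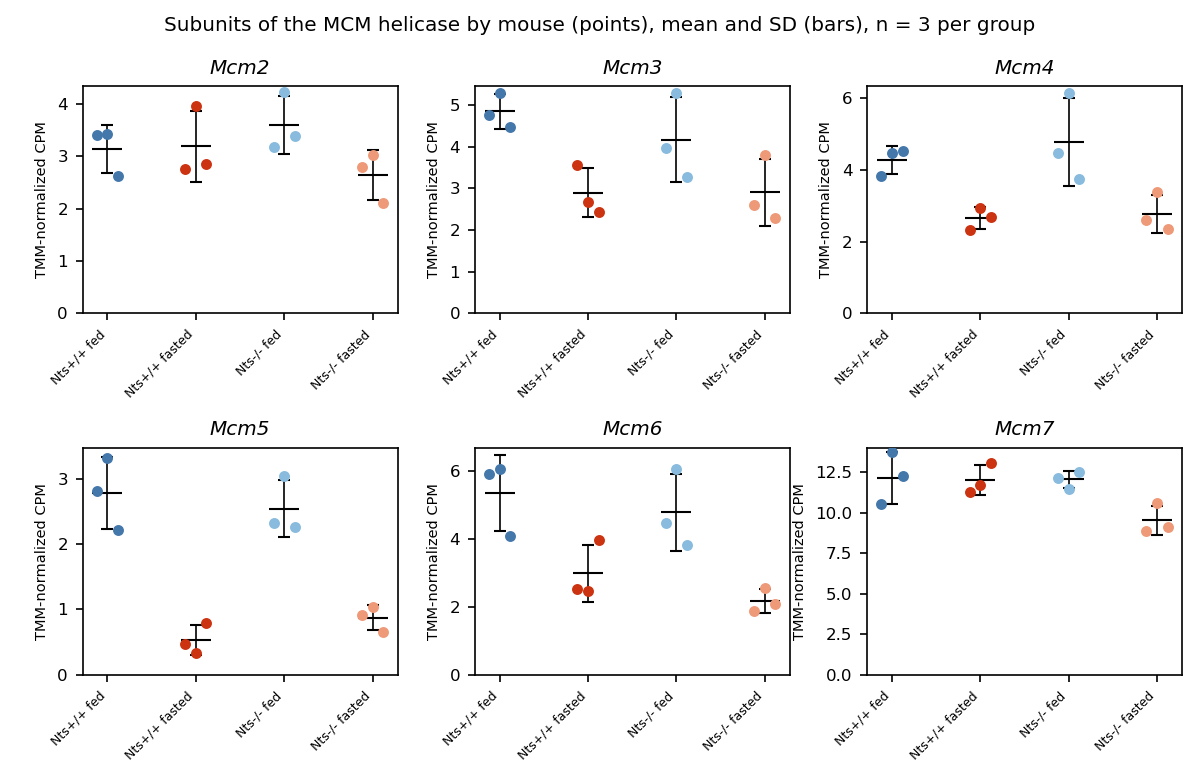
TMM-normalized CPM (vertical axes, from 0) of the 6 MCM subunits in each mouse (points), with the group mean and SD (n = 3) as bars, for the 4 groups. Fed and fasted mice are apart for Mcm5 in both genotypes, while Mcm2 and Mcm7 overlap in Nts+/+ mice and are lower in all 3 fasted than in all 3 fed Nts-/- mice.

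Ratios of subunits are a description with no test result given, since the pairs were looked at after the values were seen. The log2 ratio of Mcm2 to Mcm5 counts was 0.05 to 0.58 in the 6 fed and 1.53 to 3.52 in the 6 fasted livers. The ratio of Mcm5 to Mcm7 was between -2.46 and -1.90 when fed and between -5.08 and -3.25 when fasted. For Mcm5 against each of the other 5 subunits the mean ratio differed between fasted and fed livers by 0.99 to 1.80 in size on the log2 scale. The ratio of Mcm2 to Mcm7 differed by -0.04.

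The loading factors showed no change that passed. Cdt1, which brings the MCM helicase to origins, was between 1.66 and 2.49 CPM in fed and between 1.28 and 2.55 CPM in fasted livers, and it lies within Gm20388, a gene with a higher count, so its reads are uncertain. Gmnn, the inhibitor of Cdt1, was between 3.69 and 4.88 CPM in fed and between 3.59 and 5.31 CPM in fasted livers, with a log2 fold change of 0.09 ± 0.14 (adjusted p = 0.681 in edgeR). Cdc6, a loader of the helicase, had 9 counts or fewer in every mouse and 0 counts in 2 of the 3 fasted Nts-/- livers. Mcm10, a replication initiation factor outside the ring, changed by -0.09 ± 0.15 (adjusted p = 0.706).

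Among the genes of DNA synthesis and nucleotide supply, Tk1, the thymidine kinase of the salvage pathway, changed most. It had 26.4, 35.4 and 22.3 CPM in fed and 9.25, 4.76 and 8.84 CPM in fasted Nts+/+ livers, and 21.8, 26.5 and 26.3 CPM in fed and 9.71, 3.81 and 6.57 CPM in fasted Nts-/- livers. The highest fasted mouse was below the lowest fed mouse, and the mean log2 fold change was -1.89 ± 0.23, a 3.71-fold lower level (adjusted p = 0.000112 in edgeR). Tk1 shares 169 bases with Afmid, which has about 8 times its count (45066 against 5633) and itself changed by -0.87 on the log2 scale (adjusted p = 0.00379), so that part of the Tk1 value is uncertain.

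Of the ribonucleotide reductase subunits, 1 passed the test. Rrm1, the large subunit, had 10.3, 12.5 and 11.0 CPM in fed and 8.68, 9.12 and 9.33 CPM in fasted Nts+/+ livers, and 11.4, 11.6 and 12.9 CPM in fed and 7.88, 7.97 and 5.86 CPM in fasted Nts-/- livers. All 6 fasted livers were lower, and the mean log2 fold change was -0.52 ± 0.10 (adjusted p = 0.00176 in edgeR). Rrm2, the small subunit made in S phase, had 2.55, 2.10 and 3.77 CPM in fed and 4.03, 4.20 and 4.18 CPM in fasted Nts+/+ livers, and 2.83, 3.37 and 1.89 CPM in fed and 2.70, 3.51 and 5.65 CPM in fasted Nts-/- livers. Its log2 fold change of 0.56 ± 0.21 had an adjusted p of 0.0519 and did not pass. The log2 ratio of Rrm1 to Rrm2 counts was 1.55 to 2.75 in fed and 0.05 to 1.54 in fasted livers. This ratio too was looked at after the values were seen, and no test result is given.

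Tyms, thymidylate synthase, was between 6.22 and 7.02 CPM in the 6 fed livers and between 4.42 and 6.00 CPM in the 6 fasted livers. Its log2 fold change of -0.36 ± 0.11 passed (adjusted p = 0.0251 in edgeR) but was lost without mouse 254, 282, 303, 284 or 290, with adjusted p up to 0.0744. Pcna, the sliding clamp of the replication fork, was between 22.4 and 28.7 CPM in fed and between 20.6 and 28.4 CPM in fasted livers, with a log2 fold change of -0.09 ± 0.09 that did not pass (adjusted p = 0.436).

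Of the regulators, E2f1, the transcription factor that switches on S-phase genes, had 2.88, 2.87 and 2.79 CPM in fed and 1.33, 0.529 and 1.36 CPM in fasted Nts+/+ livers. In Nts-/- livers it had 2.43, 2.97 and 3.26 CPM when fed and 0.641, 1.21 and 0.780 CPM when fasted. Fed and fasted livers did not overlap, and the mean log2 fold change was -1.57 ± 0.23, a 2.96-fold lower level (adjusted p = 0.000205 in edgeR). Uhrf1, which recruits the maintenance DNA methyltransferase to newly replicated DNA, was near the detection floor, with 18, 12 and 5 counts in fed and 1, 0 and 6 counts in fasted Nts+/+ livers, and 12, 24 and 14 counts in fed and 3, 1 and 3 counts in fasted Nts-/- livers. It passed (log2 fold change -2.62 ± 0.54, adjusted p = 0.00208), though so few counts leave the size of the fall uncertain. E2f8, a repressor among the E2F factors, was between 3.14 and 14.6 CPM in fed and between 2.41 and 9.17 CPM in fasted livers and did not pass (adjusted p = 0.207), and it overlaps Gm2788, which has a higher count. Foxm1 had between 4 and 14 counts and was not tested.

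Of the 7 tested spindle and kinetochore genes, 6 were lower in fasted livers in the mean over genotypes and all 7 had a negative log2 fold change, from -1.43 to -0.72. Aurkb, the kinase of the chromosomal passenger complex, had 7, 7 and 11 counts in fed and 2, 6 and 5 counts in fasted Nts+/+ livers, and 14, 9 and 12 counts in fed and 3, 3 and 4 counts in fasted Nts-/- livers, with a log2 fold change of -1.43 ± 0.35 (adjusted p = 0.00609 in edgeR). Kif11, the motor that separates spindle poles, had 1.40, 1.14 and 0.887 CPM in fed and 0.617, 0.661 and 0.624 CPM in fasted Nts+/+ livers, and 0.767, 1.05 and 0.927 CPM in fed and 0.458, 0.563 and 0.449 CPM in fasted Nts-/- livers. For both genes all 6 fasted values as CPM were below all 6 fed values, and Kif11 changed by -0.87 ± 0.21 (adjusted p = 0.00576).

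Birc5, the survivin subunit of the same passenger complex, changed by -1.02 ± 0.30 (adjusted p = 0.0176) and was lost without mouse 254 or 303, with adjusted p up to 0.0529. Aurka, the centrosome kinase, changed by -0.93 ± 0.29 (adjusted p = 0.0244) and was lost without mouse 257, 282, 277 or 290, with adjusted p up to 0.0666. Bub1b, a checkpoint kinase, passed in 4 and Kif20a, a motor of cytokinesis, in 2 of 12 fits that leave out 1 mouse, and Kif20a overlaps the more abundant Cdc23. Cdc20, the activator of the anaphase-promoting complex, changed by -0.95 ± 0.42 and did not pass (adjusted p = 0.0914), and it shares 53 bases with the more abundant Elovl1, which changed by -0.72 (adjusted p = 2.68e-05). Bub1, Plk1 and Cenpf were not tested, and Bub1 had 0 counts in all 3 fasted Nts-/- livers and in the fed mouse 319.

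Both proliferation markers were lower in fasted livers. Mki67, which encodes the Ki-67 antigen of cycling cells, had 1.48, 1.69 and 1.11 CPM in fed and 0.712, 0.694 and 0.705 CPM in fasted Nts+/+ livers, and 1.59, 3.84 and 0.846 CPM in fed and 0.687, 0.606 and 0.591 CPM in fasted Nts-/- livers. The fasted mice lay close together and the fed mice were spread, with mouse 303 far above the others. The mean log2 fold change was -1.38 ± 0.31 (adjusted p = 0.00426 in edgeR), and without mouse 303 it was -0.99 (adjusted p = 0.00637). Within Nts-/- livers it was -1.74 ± 0.44 (adjusted p = 0.0164), and without mouse 303 it was -0.96 and no longer passed.

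Top2a, the topoisomerase that untangles replicated chromosomes, had 1.48, 1.03 and 0.887 CPM in fed and 0.190, 0.397 and 0.488 CPM in fasted Nts+/+ livers, and 0.767, 2.39 and 1.17 CPM in fed and 0.366, 0.260 and 0.354 CPM in fasted Nts-/- livers. All 6 fasted values were lower, and the mean log2 fold change was -1.85 ± 0.33, a 3.61-fold lower level (adjusted p = 0.000792 in edgeR). It passed with any 1 of the 12 mice left out. Mouse 303 was the highest of the 12 mice for 10 of the 33 tested members, and mouse 295 the lowest for 9.

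Levels between genes were compared per length of transcript. In fed Nts+/+ livers, CPM per kilobase was highest for Ccnd1 (23.8 ± 2.61, SD, n = 3), then Pcna (16.8 ± 0.592), Tk1 (11.3 ± 2.69) and Ccnd3 (6.72 ± 0.692). Mki67 (0.139 ± 0.0288) and Foxm1 (0.0622 ± 0.0348) were near the bottom of the order, and Cenpf (0.0178 ± 0.0121) was the lowest of the 40. The ranges of Pcna and Tk1 over the 3 mice did not overlap, nor did those of Tk1 and Ccnd3, while Mcm4, E2f1 and Mcm2 had overlapping ranges. After fasting, Tk1 was at 3.06 ± 0.997 CPM per kilobase in Nts+/+ livers, below Ccnd3 at 8.99 ± 1.42.

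Genes of the cell cycle outside the 40 were described from 7 lists with 109 tested genes. Averaged over genotypes, 45 of these were lower and 7 higher in fasted livers (47.7% against 32.8% of all tested genes), with a median log2 fold change of -0.31. Within Nts+/+ livers 19 of the 109 were lower and 5 higher, and within Nts-/- livers 22 were lower and 0 higher. In either direction this was 22% and 20.2% of the list, against 18.1% and 16.8% of all tested genes. By direction, 9.19% of all tested genes were lower and 8.91% higher in Nts+/+ livers. In Nts-/- livers 9.14% were lower and 7.7% higher. The Nts+/+ count in either direction fell from 24 to 11 without mouse 254 or 257 and to 10 without mouse 282. The Nts-/- count fell to 8 without mouse 284, 11 without mouse 303, 13 without mouse 277 or 290 and 14 without mouse 295. The shares over all tested genes fell in the same fits, to between 8.7% and 11.4% in Nts+/+ livers. In Nts-/- livers they fell to between 9.68% and 12.3%, with 10.8% without mouse 284. Of 27 mitosis genes 19 were lower and 0 higher, and of 35 genes of origins and the replication fork 17 were lower and 1, Orc3 (chosen for its direction), was higher. Smc2, a condensin subunit, was between 3.08 and 3.83 CPM in fed and between 1.23 and 1.87 CPM in fasted livers (log2 fold change -1.04 ± 0.14, adjusted p = 0.000132 in edgeR). Ncaph, another condensin subunit, changed by -1.78 ± 0.31 and Mad2l1, a spindle checkpoint protein, by -0.81 ± 0.15. At the fork, Pold1 and Pola1, catalytic subunits of DNA polymerases delta and alpha, changed by -1.17 ± 0.18 and -1.07 ± 0.17, and Rfc3, a clamp loader subunit, by -0.83 ± 0.13.

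**Figure D5:**
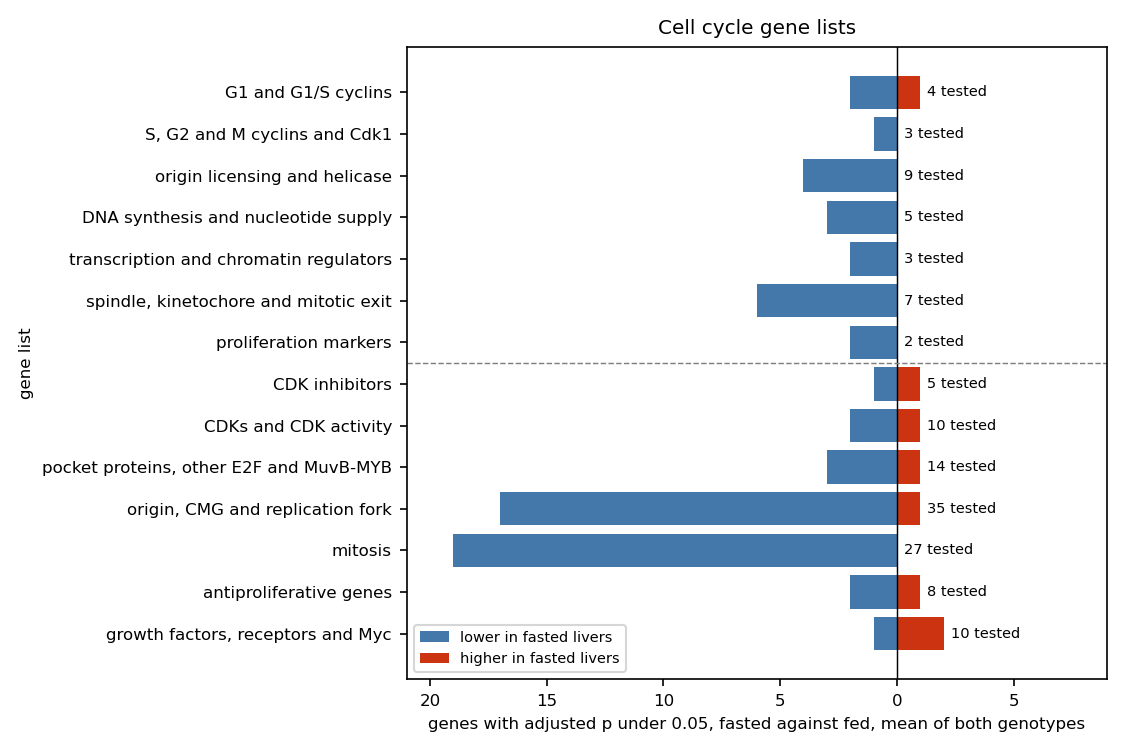
Number of tested genes with an adjusted p under 0.05 in fasted against fed livers, averaged over genotypes, that were lower (blue, to the left) or higher (red, to the right), for the 7 role lists of the members (above the dashed line) and 7 lists of other cell cycle genes (below). The number tested stands beside each bar. The longest bars are those of mitosis (19 of 27 lower) and of origins and the replication fork (17 of 35 lower).

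Upstream regulators were mixed. Cdkn1a, the CDK inhibitor p21, had 23.9, 15.01 and 24.6 CPM in fed and 60.9, 60.6 and 95.8 CPM in fasted Nts+/+ livers, with no overlap. In Nts-/- livers it had 20.6, 16.5 and 44.2 CPM when fed and 31.9, 61.4 and 40.9 CPM when fasted, and mouse 319 overlapped the fasted mice. The log2 fold change was 1.78 ± 0.40 in Nts+/+ (adjusted p = 0.0138 in edgeR) and 0.73 ± 0.39 in Nts-/- livers (adjusted p = 0.238), and the difference of -1.05, with a 95% interval from -2.28 to 0.18, did not pass (adjusted p = 0.897). Cdkn1b, the CDK inhibitor p27, was between 14.8 and 19.2 CPM in every liver. Cdkn2d, an inhibitor of Cdk4 and Cdk6, changed by -0.77 on the log2 scale (adjusted p = 0.00992), and Cdk4 itself was higher by 0.50 (adjusted p = 0.00552).

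Pkmyt1, an inhibitory kinase of Cdk1, changed by -2.17 ± 0.42 and Ccnh, the cyclin of the CDK-activating kinase, by -0.29 ± 0.08. In the list of pocket proteins, other E2F factors and MuvB subunits, 3 genes were lower and 1 was higher of 14 tested (28.6%, below the 32.8% of all tested genes). Lin9, a MuvB subunit, changed by -1.20 ± 0.20 and Rbl1, the pocket protein p107, by -0.94 ± 0.23, while Tfdp1, the partner of E2F factors, was higher by 0.47 ± 0.09 (adjusted p from 0.000546 to 0.00658). E2f7, a repressor among the E2F factors, was not tested and had 14 and 5 counts summed over the fed and fasted Nts+/+ livers and 17 and 11 counts over the Nts-/- livers.

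Markers of cell types are given for the same mean over genotypes, in which 16.8% of all tested genes were lower and 16% higher. Of 7 markers of sinusoidal endothelium 4 were lower and 1 (Lyve1) was higher. Their summed level was between 186.5 and 267 CPM in fed and between 155 and 185.4 CPM in fasted livers, with no overlap. Clec4g had between 43.7 and 74.2 CPM in fed and between 23.0 and 31.6 CPM in fasted livers. For every other marker in that list the 6 fed and 6 fasted livers overlapped, so the sum does not describe the markers as a whole. Of 7 stellate cell markers 5 were lower and 0 higher, with summed levels between 195 and 275 CPM in fed and between 186 and 211 CPM in fasted livers. Much of that sum was Dcn, with between 123 and 172 CPM in fed and between 137 and 153 CPM in fasted livers. Ngfr had between 5.32 and 9.71 CPM in fed and between 1.20 and 2.29 CPM in fasted livers. Pdgfrb had between 5.67 and 9.58 CPM in fed and between 3.47 and 5.17 CPM in fasted livers. The other stellate cell markers each overlapped between fed and fasted livers. Of 8 Kupffer cell markers 2 were lower, and the sum was between 500.3 and 566 CPM in fed Nts+/+, 255 and 436 CPM in fasted Nts+/+, 309 and 439 CPM in fed Nts-/- and 314 and 490.4 CPM in fasted Nts-/- livers. Of 5 tested cholangiocyte markers 1 was lower, and the sum was between 45.4 and 64.8 CPM in fed and between 28.6 and 41.7 CPM in fasted livers. Much of that sum was Spp1, with between 27.6 and 43.5 CPM in fed and between 10.7 and 25.4 CPM in fasted livers. The other cholangiocyte markers each overlapped between fed and fasted livers. Of 8 markers of T and NK cells 1 was lower (sums of 4.22 to 7.90 CPM). None of 7 B cell markers and none of 3 tested neutrophil markers passed, and the neutrophil marker Ly6g had at most 1 count. Of 6 tested erythroid markers 1, Alas2, was lower. Of 8 hepatocyte markers 4 were higher and 1 was lower. What part these cells have in the values of the cell cycle genes was not tested.

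The second question was whether loss of Nts changed these genes. In fed livers, 0 of 33 tested members passed the edgeR threshold when libraries labelled Nts-/- were set against those labelled Nts+/+, where 0% of all tested genes passed, and 1 member (Mcm10) had an unadjusted p under 0.05 against 6.34% of all tested genes. In fasted livers 0 members passed, again against 0% of all tested genes, and 4 members (Mcm10, Cdk1, Mcm7 and Rrm1) had an unadjusted p under 0.05 against 4.96% of all tested genes. DESeq2 called 0 members in either state. The median log2 difference over the tested members was -0.01 in fed and -0.17 in fasted livers, against 0.01 and -0.01 for all tested genes.

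Mcm10 had 14.6, 12.9 and 13.7 CPM in fed Nts+/+ and 15.1, 18.7 and 29.4 CPM in fed Nts-/- livers, and 11.1, 12.2 and 14.3 CPM in fasted Nts+/+ and 17.9, 17.9 and 25.0 CPM in fasted Nts-/- livers. The 6 libraries labelled Nts-/- were all above the 6 labelled Nts+/+, with differences of 0.62 (95% interval 0.15 to 1.08, adjusted p = 0.734 in edgeR) in fed and 0.69 (95% interval 0.23 to 1.16, adjusted p = 0.917) in fasted livers. Neither passed, and 0.275% of all tested genes were likewise higher without overlap in both feeding states (0.376% were lower, 0.652% in all). Groups did not overlap for 1 member higher (Mcm10) and 1 lower (Kif20a) in fed livers, against 10.7% of all tested genes (4.81% higher and 5.85% lower). In fasted livers 2 were higher (Mcm10 and Pcna) and 4 lower (Mcm7, Rrm1, Kif11 and Mki67), against 12.2% of all tested genes (5.29% higher and 6.88% lower).

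The genotype difference is given for the 5 tested members with the largest fitted change on fasting. In fed livers the log2 difference of Nts-/- against Nts+/+ was 0.36 for Uhrf1 (95% interval -0.93 to 1.64), -0.13 for Mcm5 (-0.75 to 0.48), -0.17 for Tk1 (-0.85 to 0.50), 0.33 for Top2a (-0.56 to 1.22) and 0.02 for E2f1 (-0.63 to 0.67). In fasted livers it was 0.07 for Uhrf1 (95% interval -2.09 to 2.23), 0.66 for Mcm5 (-0.08 to 1.40), -0.19 for Tk1 (-0.90 to 0.53), -0.17 for Top2a (-1.28 to 0.93) and -0.29 for E2f1 (-1.03 to 0.45). Every one of these 10 intervals included 0, and they also included differences of up to 2.23 on the log2 scale. Ccnd1 differed by 0.05 in fed (95% interval -0.42 to 0.51) and by -0.43 in fasted livers (-0.89 to 0.04), and Cdk1 by -0.13 in fed (-1.08 to 0.83) and -1.21 in fasted livers (-2.28 to -0.15, adjusted p = 0.917 in edgeR).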

How the data were processed

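Total RNA was extracted from liver with the Qiagen RNeasy kit. The deposited table holds expected counts, the authors' estimates of reads for each gene, with fractions, beside Ensembl identifiers, symbols and GRCm38 positions. The submitters' processing notes name Trimmomatic and RSEM, with no version. The strand setting and annotation are not given in the sources used here, so it is not known how reads on bases shared by overlapping genes were assigned. Overlap was taken from the start and end positions of whole genes, introns included. Of the 40 members, 8 overlap a gene of higher count.

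Expected counts were rounded. In R 4.3.3, edgeR 4.0.16 filtered genes (filterByExpr), normalized with TMM and fitted robust quasi-likelihood tests in 1 model with a mean per group (biological coefficient of variation 0.202). Benjamini-Hochberg adjustment was over all 13812 tested genes, with a threshold of 0.05. p-values test differences between group means, judged against the spread between mice. Intervals (95%) use the degrees of freedom of the test. Ratios are log2 counts with a pseudocount of 0.5. Length is that of the longest GENCODE transcript, matched by Ensembl identifier for all 40 members. Members were all eligible to be named. Other lists were represented by up to 3 genes each with the smallest adjusted p, with Cdkn1a, Cdkn1b and E2f7 whatever their values, and promoters by members past 0.05 with the smallest adjusted p. Orc3 and Alas2 were named after their values were seen. Members and lists were chosen with earlier results of these data known.

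Alternatives were RLE size factors, the Wald test of DESeq2 1.42.0, no filter on low counts, only the compared mice, each mouse left out, and, chosen after seeing the data, members without an overlapping gene of higher count. Tested on simulated data for fasting in Nts+/+ livers (13588 genes), the fit recovered 69 of 100 genes changed 2-fold and 84 of 100 changed 4-fold, with 8 calls among 13393 unchanged genes. Columns of other samples number 0.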

Additional observations from a re-analysis of the deposited data

How the results depend on the processing

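The median log2 fold change of the tested members in the 3 fasting comparisons stayed negative under every alternative that was run. The median genotype difference moved between -0.13 and 0.03 in fed and between -0.24 and -0.04 in fasted livers, and the median difference of the fasting effects between -0.21 and 0.05, with 1 mouse left out, so the first and last of these have no fixed sign. Leaving out 1 mouse at a time gave between 4 and 10 members in Nts+/+ livers, between 7 and 14 in Nts-/- livers and between 16 and 21 in the mean of both genotypes, where 9, 14 and 21 passed with all mice. The ranges for the other cell cycle genes were 10 to 24, 8 to 28 and 43 to 53. In the same fits the share of all tested genes that passed also moved. It was between 8.7% and 19.7% in Nts+/+, between 9.68% and 18.7% in Nts-/- and between 26.5% and 32.6% in the mean. The median moved between -0.80 and -0.46 in Nts+/+, between -0.79 and -0.59 in Nts-/- and between -0.81 and -0.66 in the mean. Fitting only the 6 Nts-/- mice gave 9 members, of 29 tested. In the mean of both genotypes, 15 of the 21 members passed in all 12 fits that leave out 1 mouse. Without the 8 members that overlap a gene of higher count, 8, 13 and 19 members passed. All 8 of those left out had been tested, so these counts are out of fewer members than the 9, 14 and 21. The genotype comparisons and the difference of the fasting effects gave 0 members under every alternative run. No paired analysis was possible because the mouse numbers are not shared between groups. Members near 3 counts in a mouse, such as Uhrf1 and Aurkb, have changes whose size the depth leaves uncertain, and 7 members were too low to test. The cause of the lower counts was not tested.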

Other observations

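Lists of antiproliferative genes and of hepatocyte growth factors and receptors were also measured, and their members did not share a direction. Of 8 antiproliferative genes 2 were lower and 1 was higher in fasted livers in the mean of both genotypes, or 37.5% against 32.8% of all tested genes. Gas2 changed by -1.12 ± 0.18 on the log2 scale (adjusted p = 0.000632 in edgeR) and Gas1 by -0.52 ± 0.15 (adjusted p = 0.0169), and Tob2, an antiproliferative factor of the BTG family, was higher by 0.50 ± 0.13 (adjusted p = 0.0114).

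Of 10 tested genes in the growth factor list, 2 were higher and 1 was lower (30%, against the same share). Myc, the transcription factor, had 2.99, 1.66 and 2.35 CPM in fed and 4.89, 3.70 and 6.70 CPM in fasted Nts+/+ livers, and 1.69, 3.37 and 2.38 CPM in fed and 2.84, 7.23 and 3.99 CPM in fasted Nts-/- livers. Its log2 fold change was 1.03 ± 0.26 in the mean of both genotypes (adjusted p = 0.00848 in edgeR). Met, the receptor of hepatocyte growth factor, was higher by 0.36 ± 0.12 (adjusted p = 0.0414), and Egfr, the receptor of epidermal growth factor, changed by -0.63 ± 0.18 (adjusted p = 0.0161).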
